A study of Mus musculus with 18 samples.

Results

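Of 159870 H3K9me3 regions found in mouse embryonic stem cells (mESCs), 2379 were centred on a coding exon. Overlapping peaks of 6 libraries were merged, and a region belonged to this set when its midpoint lay in a coding sequence of the deposited gene annotation and more than 1 kb from any transcript start, on the autosomes without chromosome 2. On those 18 autosomes there were 145014 merged regions, so the set was 1.64% of them. The other regions there were centred on introns (53931), between genes (81400), within 1 kb of a transcript start (4560) or on the remaining exon sequence (2744).

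H3K9me3, trimethylation of lysine 9 of histone H3, marks compacted and silent chromatin, and is best known over repeats, retroviral elements, imprinted control regions and clusters of related genes. It is also known over the bodies and last exons of KRAB zinc finger genes. UHRF1 binds hemimethylated CpG sites and H3K9me3 and brings the maintenance DNA methyltransferase DNMT1 to newly copied DNA. DHX9 is a helicase that unwinds RNA and RNA:DNA hybrids. A coding exon is under selection for the protein it encodes, and is on average richer in G and C than introns or the DNA between genes.

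The cells were E14TG2a (ES-E14TG2a), a mouse ES cell line grown in serum with LIF, and chromatin was precipitated with an H3K9me3 antibody from Abcam. The 3 genotypes, WT, UHRF1KO (Uhrf1 knockout) and DHX9KO (Dhx9 knockout), had 2 libraries each, and 12 other samples of the 18 in the study were not analysed here. The Uhrf1 knockouts were clonal CRISPR-Cas9 lines made in cells that carry an inducible heterochromatin reporter (tetO sites and eGFP at the Vimentin locus on chromosome 2, with TetR-KRAB at Rosa26), so a clone and its genotype cannot be told apart. How the Dhx9 knockout was made is not given in the sources used here, and wild-type cells carry the reporter too, according to the study's text.

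The lists held 116156 and 119982 peaks in wild-type cells, 70195 and 93916 in Uhrf1 KO cells and 125453 and 120695 in Dhx9 KO cells. ChIP reads within peaks numbered 20875020 and 19543177, 6703081 and 16966576, and 19761402 and 20491615, respectively. The background reads that the peak caller set against the ChIP reads were the same for the wild-type and Dhx9 KO lists (100% of peaks with identical ends) and differed for the Uhrf1 KO lists (1.85% to 4.29% the same). For the presence or absence of a peak, the Uhrf1 genotype and the background used therefore cannot be told apart. Uhrf1 KO replicate 1 stood apart in its reads within peaks, and Dhx9 KO replicate 1 on chromosomes 4 and 8. It had 10277 regions on chromosome 4 against 5110 in wild-type replicate 1, and 3234 on chromosome 8 against 6161. The Uhrf1 and Dhx9 genes held no peak in any library, so H3K9me3 over them does not check the knockouts. Where no peak was called, the lists give no reads. There may be reads below the caller's threshold, so "lost" and "gained" below describe peak calls.

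Regions centred on coding exons were mostly larger than the exon itself. Their median length was 3200 bp (interquartile range 2000 to 5400, extremes 200 and 105000), and 84.2% of them held the whole of the exon at their midpoint. Coding bases made up a median of 24.6% of a region. In 698 regions (29.3%) at least 50% of the bases were coding, in 102 all bases were coding, and in 533 (22.4%) fewer than 10% were. The exons hit were long, with a median of 297 bases, where the exon that holds the median coding base of the annotation has 194. Regions called in a single library numbered 623, and 386, 395, 262, 361 and 352 were called in 2, 3, 4, 5 and all 6 libraries. The rule's distance limit left out 551 regions with a coding midpoint. Of the 33 regions within 100 bp outside the limit 9 were lost in Uhrf1 KO, as were 9 of the 24 within 100 bp inside it.

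The sequences of some exons named in the results are shown. Zfp629, Flg2 and Clcn4 carried the strongest wild-type enrichment, Polrmt, Repin1 and Prp2 lost their peak in Uhrf1 KO cells, and Zfp273 gained one. Whether the sequence of an exon bears on its peak was not tested. Each stretch, up to 200 bases, is taken from the middle of the region, cut to the coding exon and written 5′ to 3′ on the coding strand, from RefSeq assembly GRCm38.p6 (mm10), with CpG sites in capitals.
Zfp629, last of 2 coding exons, chr7:127612101-127612300, minus strand: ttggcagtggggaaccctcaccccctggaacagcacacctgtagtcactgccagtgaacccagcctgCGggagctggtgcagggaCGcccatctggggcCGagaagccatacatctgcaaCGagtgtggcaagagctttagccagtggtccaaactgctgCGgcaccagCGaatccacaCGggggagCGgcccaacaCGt
Flg2, exon 5 of 6, chr3:93214377-93214500, plus strand: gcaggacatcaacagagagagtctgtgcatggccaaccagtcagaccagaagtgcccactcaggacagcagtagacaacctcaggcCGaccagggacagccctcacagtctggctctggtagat
Clcn4, exon 9 of 11, chr7:7288901-7289100, minus strand: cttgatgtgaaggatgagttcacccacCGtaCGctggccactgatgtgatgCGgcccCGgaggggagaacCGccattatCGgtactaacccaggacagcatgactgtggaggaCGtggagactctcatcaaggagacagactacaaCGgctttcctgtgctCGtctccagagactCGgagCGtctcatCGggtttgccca
Polrmt, exon 15 of 21, chr10:79737600-79737700, minus strand: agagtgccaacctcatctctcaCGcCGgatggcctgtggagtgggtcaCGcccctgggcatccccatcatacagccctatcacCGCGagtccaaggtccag
Repin1, last of 3 coding exons, chr6:48597101-48597300, plus strand: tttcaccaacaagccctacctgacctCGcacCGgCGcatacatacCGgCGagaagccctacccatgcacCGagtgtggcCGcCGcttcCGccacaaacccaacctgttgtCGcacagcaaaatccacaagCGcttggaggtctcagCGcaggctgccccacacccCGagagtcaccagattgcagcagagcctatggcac
Prp2, last of 2 coding exons, chr6:132600201-132600400, plus strand: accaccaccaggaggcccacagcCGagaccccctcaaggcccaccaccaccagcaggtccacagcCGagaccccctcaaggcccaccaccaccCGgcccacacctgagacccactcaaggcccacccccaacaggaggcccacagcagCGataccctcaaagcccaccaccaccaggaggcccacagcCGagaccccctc
Zfp273, last of 4 coding exons, chr13:67825601-67825800, plus strand: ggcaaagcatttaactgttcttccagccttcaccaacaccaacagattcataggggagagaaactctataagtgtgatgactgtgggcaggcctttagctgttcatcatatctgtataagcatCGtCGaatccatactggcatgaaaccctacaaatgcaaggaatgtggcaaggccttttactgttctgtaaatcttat
The stretches of Repin1 and Clcn4 hold 13 and 12 CpG sites and those of Zfp273 and Flg2 hold 2 and 1. DNA methylation at these sites was not part of the files.

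Last coding exons held more of these regions than their share of coding bases. Of the 2379 regions, 536 (22.5%, 95% Wilson interval 20.9 to 24.3, counting error only) were centred on the last coding exon of a gene with several, which holds 15.1% of annotated coding bases. Inner exons held 1468 regions (61.7% against 66.3% of coding bases), first coding exons 171 (7.19% against 10.3%) and the exons of genes with a single coding exon 204 (8.58% against 8.30%). The distance limit works against first exons, since most of them lie near a transcript start. The last exons hit had a median of 981 bases, where the median last coding exon of the annotation has 155, and the inner exons hit had 176 against 124. The annotation medians count each exon once, whereas a midpoint falls more often on a long exon. A longer median among the exons hit is therefore in part set by the choice. Regions on last exons were 42.9% coding in the median and those on inner exons 16.9%. No test was made of these shares, and the share in last exons ran from 21.7% to 33.0% under other settings of the rule.

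**Figure D1:**
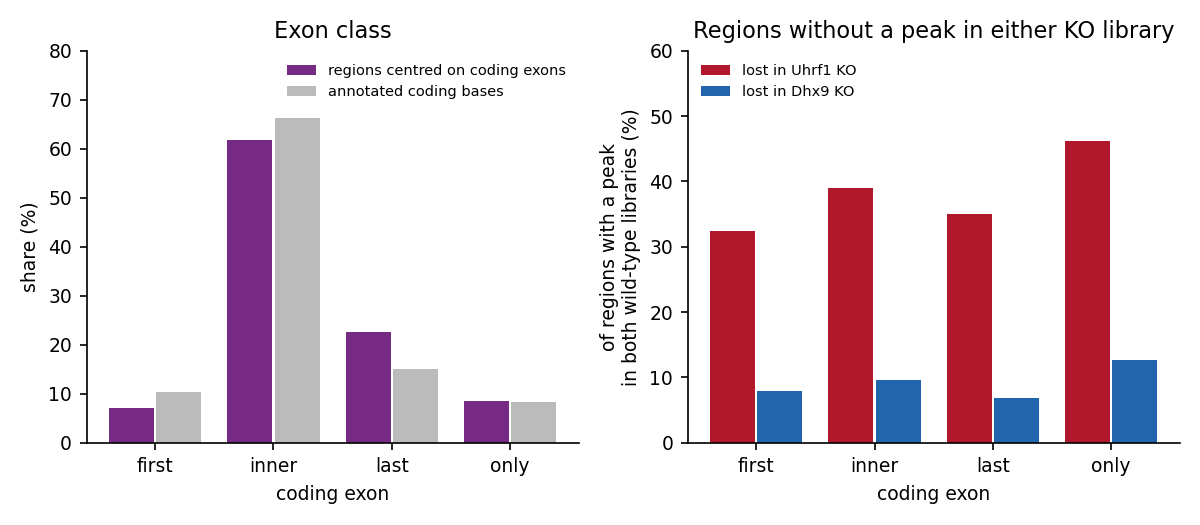
Share of the 2379 regions (left, purple) and of annotated coding bases (grey) in first, inner, last and only coding exons, in percent, and (right) the share of regions with a peak in both wild-type libraries that had none in either Uhrf1 KO (red) or Dhx9 KO (blue) library, with no replicate error since each bar is 1 count. Last exons hold 22.5% of the regions and 15.1% of coding bases, and the red bars run from 32.5% in first to 46.2% in only exons.

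The regions lay in 2140 genes, 11.4% of the 18844 coding genes on these chromosomes. A single region was found in 1942 of them, and 198 genes had 2 or more. Fat4, a giant atypical cadherin, and Dnhd1, a dynein heavy-chain-like gene, had 5 each. Hydin (a protein of motile cilia), Kars (lysyl-tRNA synthetase), Gm15800, Pdzd2, Pclo (the presynaptic scaffold Piccolo) and Dock5 (a Rac activator) had 4 each. In Fat4 the region on the first coding exon, chr3:38887001-38893200, had 279 and 239 ChIP reads in wild-type, 68 and 298 in Uhrf1 KO and 249 and 219 in Dhx9 KO cells, and that on exon 9 of 17, chr3:38978801-38984000, held 270 and 220, 84 and 268, and 201 and 185. Both were thus called in all 6 libraries. The region on the last exon of Fat4 lacked a peak only in Uhrf1 KO replicate 1, and those on exons 3 and 5 were called in 3 and 2 libraries. None of the 5 regions of Dnhd1, all on inner exons, had a peak in Uhrf1 KO replicate 1, and 3 had one in replicate 2. The 4 regions of Kars were thin: no more than 98 reads in any library, and none called in more than 2.

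The 5 regions with the most coding bases lay on Ahnak (a scaffold protein, last exon of 16623 bases), Plec (the cytolinker plectin, last exon of 6213 bases), C4b (complement component), Gm16486 (only exon, 9414 bases) and Cmya5 (exon 2 of 13, 9310 bases). Ahnak had 774 and 699 reads in wild-type, a peak only in Uhrf1 KO replicate 2 (453 reads) and 766 and 637 reads in Dhx9 KO cells, and Plec 465 and 524, 399 in Uhrf1 KO replicate 2, and 602 and 281. The C4b region spans a run of exons, and was called in all 6 libraries. Gm16486 had 870 and 863 reads in wild-type and 694 and 622 in Dhx9 KO cells, and no peak in the Uhrf1 KO libraries.

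Zinc finger genes had regions mostly on their last exon. Of 398 genes with a C2H2 or KRAB zinc finger symbol, 81 (20.4%, against 11.4% of all coding genes) had 84 regions, of which 54 were on the last coding exon, 14 on inner, 8 on first and 8 on only exons. The last exon, which in these genes holds the finger array, carries 55.7% of their own coding bases, so 54 of 84 (64.3%) is to be read against that share. Peaks were called in 53 and 44 of the 84 in wild-type, 30 and 24 in Uhrf1 KO and 41 and 41 in Dhx9 KO cells. Of the 33 in both wild-type libraries 10 (30.3%) were lost in Uhrf1 KO, against 23.4% of all regions in both, and 13 regions were called in all 6 libraries. The strongest was Zfp629 (chr7:127603001-127621400), with 1570 and 1522 reads in wild-type, 100 and 489 in Uhrf1 KO and 1217 and 1659 in Dhx9 KO cells.

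The repeated build of these exons was visible in the reference sequence. Where a coding stretch of at least 300 bases lay in a region, the longest run (up to 900 bases) was compared with itself at every shift from 6 bases, and called self-matching at 60% identity. This held for 86 of 1186 regions with such a stretch (7.25%), and for 381 of 14137 annotated coding exons of that length (2.70%). The best shift was a multiple of 84 bases, the length of a zinc finger with its linker, in 54 of the 86 and in 234 of the 381. Of the 74 zinc finger regions with such a stretch, 34 were self-matching, all 34 of them at a multiple of 84 bases. Reads were aligned with the default settings of Bowtie2, which reports 1 place for a read that matches several, so reads from near-identical copies can be placed on the wrong one.

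The clustered protocadherins, cell-surface adhesion proteins of neurons whose variable exons lie side by side on chromosome 18 and each have a promoter of their own, were hit almost throughout. Of 58 genes 50 had a region, 33 on a first and 17 on an only coding exon. In Pcdha, 12 of 14 genes had a region, and peaks were called in 12 and 12 regions in wild-type, 7 and 9 in Uhrf1 KO and 12 and 10 in Dhx9 KO cells. In Pcdhb, 17 of 22 genes had one, called in 15 and 12, 0 and 4, and 7 and 1. In Pcdhg, 21 of 22 genes had one, called in 18 and 19, 0 and 2, and 17 and 4. The Pcdha regions thus kept more peaks in Uhrf1 KO cells than those of Pcdhb and Pcdhg, of which none was called in Uhrf1 KO replicate 1. They also held more reads, with a median over called regions of 176 and 167 in wild-type cells for Pcdha, 75.0 and 71.5 for Pcdhb and 119 and 116 for Pcdhg. These medians are not per kb, and the Pcdha regions were also longer (median 2900 bp, against 1800 bp in Pcdhb and 2600 bp in Pcdhg). Of the 39 regions in both wild-type libraries, 27 (69.2%) were lost in Uhrf1 KO, against 23.4% of all regions in both, and 7 in Dhx9 KO, against 6.88%. By cluster, 3 of 12 were lost in Uhrf1 KO in Pcdha, a share near that of all regions, 9 of 10 in Pcdhb and 15 of 17 in Pcdhg. The 50 regions are neighbours on 1 chromosome, and all but 7 lacked a peak in at least 1 library.

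**Figure D2:**
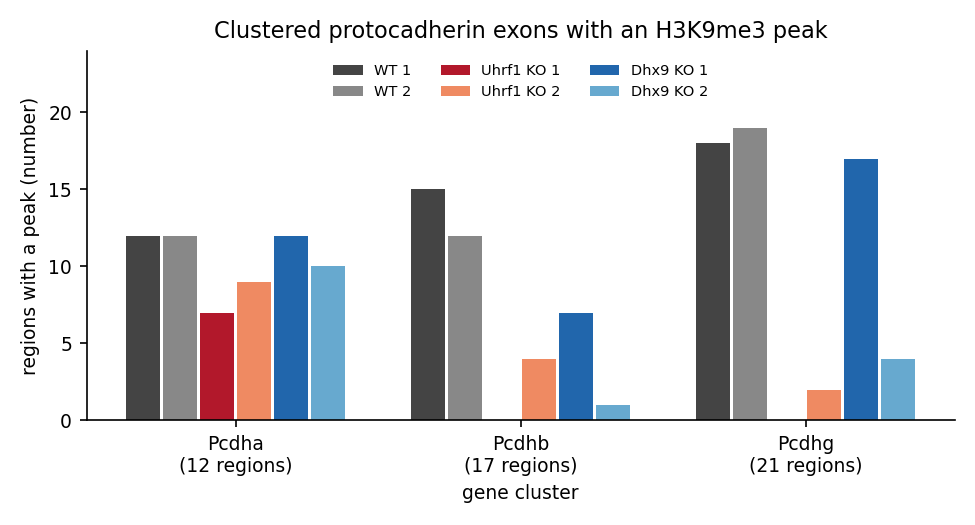
Number of regions centred on Pcdha, Pcdhb and Pcdhg coding exons that had an H3K9me3 peak in each of the 6 libraries (WT, grey; Uhrf1 KO, red; Dhx9 KO, blue), with 1 bar per library. In Uhrf1 KO replicate 1, 7 of 12 Pcdha regions were called and 0 of the Pcdhb and Pcdhg regions, and in Dhx9 KO replicate 2, 1 Pcdhb and 4 Pcdhg regions were called.

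Within Pcdha, Pcdha6 (chr18:36967601-36971200) held 320 and 329 reads in wild-type, 119 and 292 in Uhrf1 KO and 218 and 246 in Dhx9 KO cells. Pcdha7 (chr18:36973801-36977600) held 345 and 327, 89 and 250, and 208 and 186, and Pcdha1 (chr18:36930001-36932800) 278 and 267, 42 and 93, and 70 and 85. All 3 regions were called in every library, with the fewest reads in Uhrf1 KO replicate 1, the library with the fewest reads within peaks.

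Other gene groups were hit to different extents, and their losses in Uhrf1 KO, counted among regions in both wild-type libraries, are to be read against the 23.4% of all such regions. Of 47 other cadherin and protocadherin genes 21 had 31 regions, and 3 of the 18 in both wild-type libraries were lost in Uhrf1 KO. Mucins, long secreted or membrane glycoproteins, had a region in 6 of 11 genes and collagens in 9 of 40, with 0 of 3 and 1 of 5 lost. Only 16 of 820 olfactory receptor genes had a region, with 6 of 10 lost, and 26 of 327 vomeronasal (pheromone) receptor genes, with 1 of 5 lost. Of the 27 vomeronasal regions 20 (74.1%) were on the last exon, which holds 23.1% of the coding bases of these genes. Peaks were called in 7 and 7 of the 27 in wild-type, 16 and 7 in Uhrf1 KO and 7 and 9 in Dhx9 KO cells, and 0 were called in all 6 libraries. The group thus rests largely on Uhrf1 KO replicate 1. Keratins (2 of 110 genes) and histones (2 of 79) were rarely hit, and no homeobox cluster gene of 30 was. Only exons hold 82.8% of histone coding bases, and first exons hold 57.4% of those of homeobox cluster genes. The distance limit leaves out exons near a transcript start, so low counts in such groups can be in part set by the rule. How far was not tested. Of 41 imprinted genes 8 had a region each, 5 of them on the last exon, with 3 of 7 lost. The last exon of Peg10, a retrotransposon-derived gene, held 266 and 239 reads in wild-type, 263 and 750 in Uhrf1 KO and 238 and 212 in Dhx9 KO cells. These reads are not scaled. Depth relative to wild-type replicate 1 was 0.498 in Uhrf1 KO replicate 1 and 1.19 in Uhrf1 KO replicate 2. A count in Uhrf1 KO replicate 1 like that in wild-type is therefore not a like level. The last exon of Peg3, an imprinted zinc finger gene, had 326 and 343 reads in wild-type, 196 in Uhrf1 KO replicate 2 and no peak in replicate 1. Pluripotency genes had 3 regions in 2 of 19 genes, Nanog and Tfcp2l1. Those of Nanog were each called in 1 wild-type library, with no more than 49 reads. The H3K9 and DNA methylation machinery had regions in 2 of 30 genes, Tet2 and Tet3 (5-methylcytosine oxidases), and germline genes in 2 of 23, Zbtb16 and Mov10l1. Shares of groups of under 10 regions rest on few counts, and no group was tested.

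The strongest regions in wild-type cells, by the lower of the 2 wild-type log2 folds over background, began with Zfp629, Flg2 and Clcn4. Zfp629 had log2 folds of 3.68 and 3.80 in wild-type, 2.10 and 3.27 in Uhrf1 KO and 3.29 and 3.18 in Dhx9 KO cells. Per kb called, and scaled to the depth of wild-type replicate 1, its ChIP reads were 117 and 123, 45.7 and 44.7, and 92.6 and 116, so both Uhrf1 KO libraries lay below the other 4. Flg2, a filaggrin-family gene of the skin barrier with a repeated inner exon, had 338 and 268 scaled reads per kb in wild-type, 207 and 160 in Uhrf1 KO and 293 and 278 in Dhx9 KO cells, with the same order. Clcn4, a chloride/proton exchanger that lies on an autosome in laboratory mice, had 156 and 172, 121 and 147, and 140 and 119, so that here the Uhrf1 KO and Dhx9 KO libraries overlapped. Ccdc158, in the top 10 only among regions of at least 2 kb, had 133 and 136, 64.6 and 56.2, and 136 and 106. Ces5a, a carboxylesterase on chromosome 8, had 58.3 and 62.2, 45.5 and 40.7, and 179 and 47.7, the high value being Dhx9 KO replicate 1 with 29 reads. Also in the overall top 10 were Gm40991, 2410089E03Rik, LOC108167855, Gm31526, Ms4a14 and Grid1. Several of these are predicted genes or members of families with close copies, whose reads are uncertain. These were chosen for high wild-type values, so that a lower level elsewhere is in part set by the choice.

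**Figure D3:**
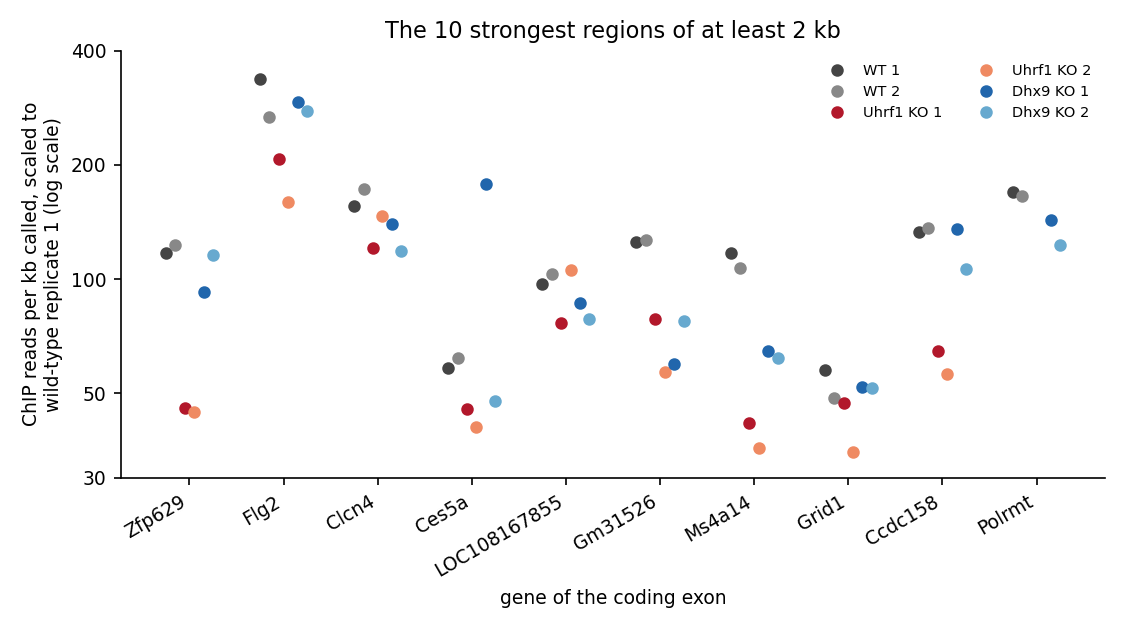
ChIP reads per kb called, scaled to wild-type replicate 1 (log axis), in each library (1 point per library; WT grey, Uhrf1 KO red, Dhx9 KO blue) for the 10 regions of at least 2 kb with the highest wild-type log2 fold; a library without a peak has no point. The Uhrf1 KO points of Zfp629 lie at 45.7 and 44.7 against 117 and 123 in wild-type cells, and Polrmt has no Uhrf1 KO point.

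Peaks centred on coding exons were called less often in Uhrf1 KO cells. They were present in 67.5% and 65.8% of the 2379 regions in wild-type, 21.9% and 39.8% in Uhrf1 KO and 71.2% and 50.9% in Dhx9 KO cells. Over all merged regions the shares were 58.5% and 59.8%, 37.0% and 48.7%, and 62.9% and 61.7%. Divided by those, the coding exon shares were 1.15 and 1.10 in wild-type, 0.591 and 0.817 in Uhrf1 KO and 1.13 and 0.826 in Dhx9 KO cells. The Uhrf1 KO ratios lay below both wild-type ratios (difference of means 0.423, two-sided exact permutation test, p = 0.333, the smallest that 2 against 2 libraries can give). In Dhx9 KO the difference of means was 0.148 (two-sided exact permutation test, p = 0.667), with replicate 1 between the wild-type ratios and replicate 2 below them. Without Dhx9 KO replicate 2 the difference was -0.00815, and without replicate 1 it was 0.311. The mean GC content of all regions called was 46.1% and 46.0% in wild-type, 43.9% and 45.2% in Uhrf1 KO and 45.9% and 45.0% in Dhx9 KO libraries, lower in the same 3 libraries in which coding exon peaks were fewer. The part of GC content in these shares was not tested.

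**Figure D4:**
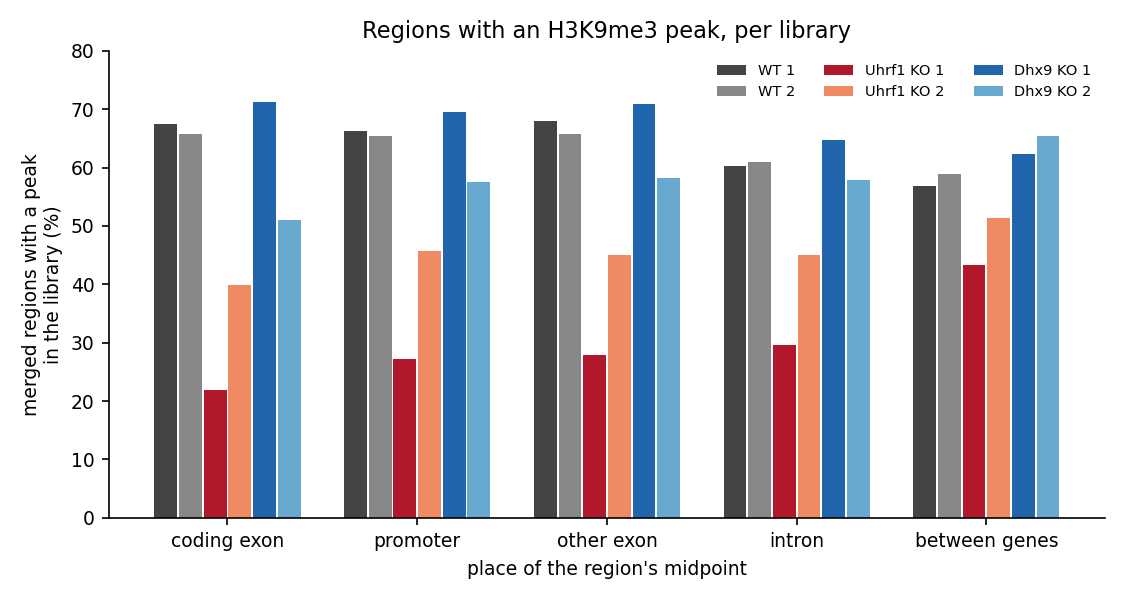
Percent of merged regions with an H3K9me3 peak in each of the 6 libraries (1 bar per library), by where the region's midpoint lies. Coding exon regions have the lowest Uhrf1 KO bars (21.9% and 39.8%) of the 5 places, and between genes the bars of the 6 libraries run from 43.3% to 65.4%.

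By the stricter rule of a peak in both wild-type and in neither Uhrf1 KO library, 486 of the 2379 regions (20.4%) were lost in Uhrf1 KO, against 11.1% of all 159870 regions. A peak was gained in 18 (0.757%), against 2.48%. Of the 1271 regions with a peak in both wild-type libraries, 388 had one in both Uhrf1 KO libraries, 385 in replicate 2 alone and 12 in replicate 1 alone. The share lost among such regions was 38.2%, against 33.1% for regions at transcript starts, 31.8% for other exon sequence, 28.8% for introns and 18.3% between genes. The count lost rests on every library, since fewer libraries make the rule easier to meet. It was 763 without wild-type replicate 1 (33.0% of regions, against 20.7% of all), 796 without wild-type replicate 2 (34.1% against 20.0%), 504 without Uhrf1 KO replicate 1 (21.3% against 12.3%) and 876 without Uhrf1 KO replicate 2 (36.7% against 22.5%). The 18 gains became 31 (1.34% against 3.79% of all regions), 37 (1.58% against 4.14%), 79 (3.35% against 7.22%) and 79 (3.31% against 7.60%) in the same order.

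The loss varied with GC content, length and enrichment, and coding exon regions differed from the rest in base composition but not in median length (3200 bp in both). Their median GC content was 49.4%, against 45.2% in other regions of these autosomes, their median CpG count 1.5 per 100 bases against 0.9, and their soft-masked repeat share 11.9% against 28.3%. The GC quintile with the highest content held 58.2% of them. In that quintile 47.8% of coding exon regions called in both wild-type libraries were lost and 42.0% of other regions. In the 4 lower quintiles the shares were 3.23% against 3.73%, 20.0% against 14.8%, 24.6% against 21.1% and 25.2% against 26.5%, from the lowest up. The coding exon share was thus higher in 3 of the 5 quintiles and lower in 2. By length the shares fell from 75.0% (18 of 24 regions) against 45.1% at up to 1 kb to 14.5% against 8.62% above 8 kb, higher in coding exon regions in each of 5 classes. By the lower wild-type log2 fold they fell from 62.6% against 44.4% below 0.75 to 14.6% (6 of 41) against 3.61% at 2 or more. No test was made of these shares.

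**Figure D5:**
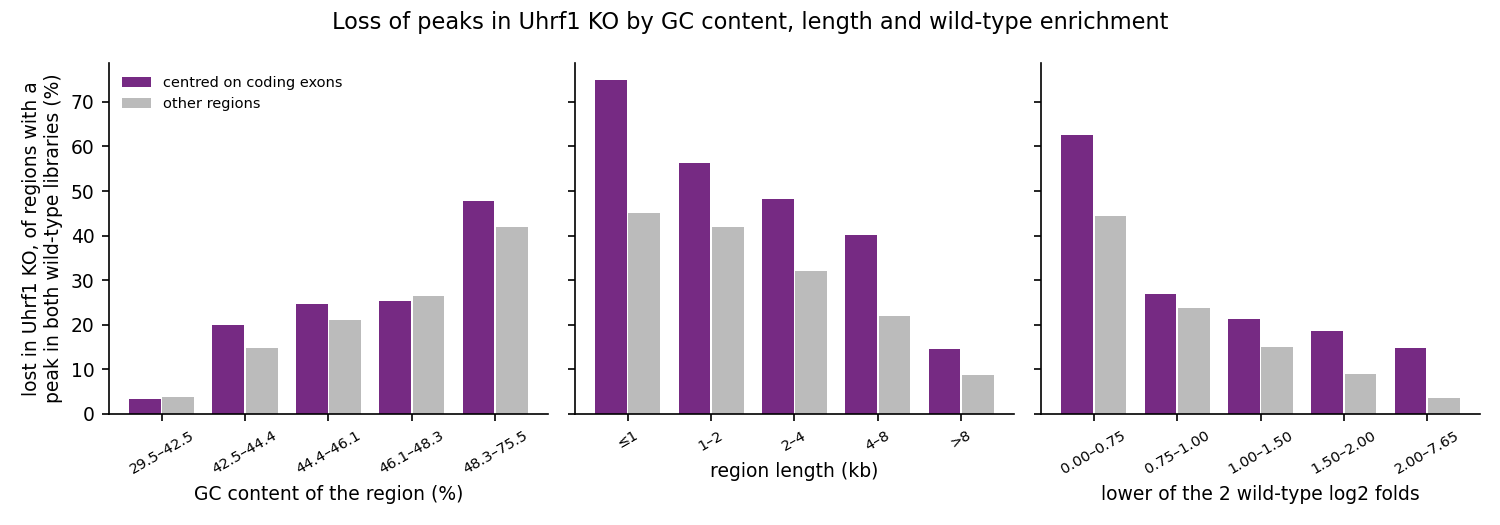
Share (%) of regions with a peak in both wild-type libraries that had none in either Uhrf1 KO library, by quintile of GC content, by length class and by the lower of the 2 wild-type log2 folds, for regions centred on coding exons (purple) and other regions of the 18 autosomes (grey). In the highest GC quintile the bars stand at 47.8% and 42.0%, and in the lowest at 3.23% and 3.73%.

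Among strongly enriched regions that lost the peak, Polrmt stood out by size. POLRMT is the RNA polymerase of mitochondria, and its region, chr10:79730401-79744800, is centred on exon 15 of 21. It had 2272 and 2139 ChIP reads in wild-type cells, and 1489 and 1495 in Dhx9 KO cells, over background counts of 411, 417, 402 and 370, and no peak in the Uhrf1 KO libraries. The nearest Uhrf1 KO peaks began 2600 bp and 800 bp away. Repin1, a zinc finger gene (chr6:48594201-48600200), had 455 and 398 reads in wild-type and 280 and 409 in Dhx9 KO cells, and none called in Uhrf1 KO within 5800 bp. Prp2, a proline-rich salivary protein gene, had 78 and 75 reads in wild-type, 50 in Dhx9 KO replicate 1 and no other peak. The exon of Prp2 is itself a repeat, with 64.0% GC over the region. Nipa1, a magnesium transporter gene, had 44 and 37 reads in wild-type and 42 in Dhx9 KO replicate 2. Dsg1b, a desmosomal cadherin, had 59 and 73 reads in wild-type and 69 and 63 in Dhx9 KO cells. The other 5 of the 10 strongest losses were LOC101056056, Gm21149, Gm6866, Gm4454 and Gm5592, predicted genes with 29 to 125 reads in wild-type cells. Gm6866 had no peak in any knockout library.

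The gains in Uhrf1 KO were of few reads. On the last exon of Flg2 (chr3:93219601-93220400) 39 and 45 reads were called in Uhrf1 KO and 53 in Dhx9 KO replicate 2, with the nearest wild-type peak 800 bp away in both libraries. On the last exon of Zfp273, a zinc finger gene, 51 and 50 reads were called in Uhrf1 KO and 66 in Dhx9 KO replicate 2. Megf10, an engulfment receptor gene, had 28 and 82 reads, Serpinb1a, a serine protease inhibitor gene, 51 and 82, and Vmn2r74, a pheromone receptor gene, 41 and 49, each in Uhrf1 KO. All 5 lacked a peak in both wild-type libraries, by the rule that chose them.

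In Dhx9 KO cells 116 coding exon regions (4.88%) were lost, against 3.26% of all regions, and 61 (2.56%) were gained, against 3.83%. Of the 1271 regions in both wild-type libraries 818 were called in both Dhx9 KO libraries, 260 in replicate 1 alone and 77 in replicate 2 alone. Chromosome 8 held 19 of the 116. Without chromosomes 4 and 8, 94 regions (4.56%) were lost, against 3.20% of all. The count lost was 270 without wild-type replicate 1 (11.7% of regions against 9.24% of all), 271 without wild-type replicate 2 (11.6% against 8.48%), 402 without Dhx9 KO replicate 1 (18% against 8.98%) and 194 without Dhx9 KO replicate 2 (8.21% against 7.85%). The share lost was thus near that of all regions when only Dhx9 KO replicate 1 was used. The 61 gains became 123 (5.31% against 6.48% of all regions), 108 (4.63% against 6.70%), 166 (7.43% against 14.6%) and 330 (14.0% against 14.2%) in the same order. Both knockouts were compared with the same wild-type libraries, and 93 regions were lost in both, 19.1% of those lost in Uhrf1 KO and 80.2% of those lost in Dhx9 KO. The same overlap over all regions is not given here, so these shares cannot be read as particular to coding exons.

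The strongest losses in Dhx9 KO cells were LOC105245406, Ahnak2, AW146154, Chrm2 and Gm6866. Chrm2, a muscarinic acetylcholine receptor with 1 coding exon (chr6:36523201-36524600), had 93 and 77 reads in wild-type cells, 75 in Uhrf1 KO replicate 2 and no peak in the other 3 libraries. Ahnak2, a scaffold protein gene, had 102 and 52 reads in wild-type and 81 in Uhrf1 KO replicate 2, on an inner exon in a region of 68.9% GC. LOC105245406 kept peaks of 22 and 37 reads in Uhrf1 KO cells. The strongest gains were Gm1966 (46 and 48 reads in Dhx9 KO), Nr1d2 (a clock repressor, 39 and 34), Syne1 (the nuclear envelope protein nesprin-1, exon 90 of 146, 84 and 97), Slc4a4 (a bicarbonate cotransporter, 51 and 61) and Bpnt1 (a phosphatase, 25 and 33). The first 4 had no peak in Uhrf1 KO cells, and Bpnt1, a region of a single 200 bp bin, had 14 and 31 reads there.

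Read counts could be compared only where a peak was called in all 4 libraries and covered at least 80% of the region in each, which regions that lost their peak cannot meet. Of 1565 such regions 18 were centred on coding exons, and 4 of the 18 had fewer reads in Uhrf1 KO by edgeR's quasi-likelihood test at a false discovery rate of 0.05, against 5.24% of all those tested. None of the 18 had more, against 1.02% of all those tested. At an unadjusted p under 0.05 there were 5 lower and 0 higher. Those were 27.8% of the 18, near the 24.7% of all 1565 in either direction. DESeq2 called 3 lower (16.7%, against 3.9% of all) and 0 higher (against 0.383%). The median log2 change was -0.28 over the 18 and -0.04 over all 1565.

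The 2 clustered protocadherin exons that could be tested were both in Pcdha, since no Pcdhb or Pcdhg region had a peak in Uhrf1 KO replicate 1, and both had fewer reads. Pcdha10 (chr18:37005601-37007800) had 198 and 192 reads in wild-type cells against 36 and 113 in Uhrf1 KO cells, a log2 change of -1.18 ± 0.20 (SE; edgeR adjusted p = 0.00697). Pcdha9 (chr18:36998001-37000400) had 181 and 196 reads in wild-type cells against 46 and 137 in Uhrf1 KO cells, a log2 change of -0.92 ± 0.20 (SE; edgeR adjusted p = 0.0180). Both fell beyond the spread between replicates once the read totals of the tested regions and called length were taken into account. Without wild-type replicate 2, Pcdha9 had an edgeR adjusted p of 0.187.

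The other regions with fewer reads lay on last exons. Dspp, the dentin sialophosphoprotein gene, whose last exon holds a long serine-aspartate repeat (chr5:104174201-104182600), had 1085 and 1101 reads in wild-type cells against 449 and 1023 in Uhrf1 KO cells, a log2 change of -0.53 ± 0.12 (SE; edgeR adjusted p = 0.0252). Without wild-type replicate 2 its edgeR adjusted p was 0.378. Tshz3, a zinc finger homeobox transcription factor gene (chr7:36768601-36772000), had 205 and 162 reads in wild-type cells against 55 and 159 in Uhrf1 KO cells, a log2 change of -0.74 ± 0.19 (SE; edgeR adjusted p = 0.0446). The Tshz3 call was lost without either wild-type library (edgeR adjusted p = 0.403 and 0.0719) and in DESeq2 (adjusted p = 0.0956). None of the 4 was called with equal library sizes in place of TMM scaling, where edgeR called 0 of all 1565 regions, with 2 of them and 0 of the 18 at an unadjusted p under 0.05. The median log2 change of all 1565 then lay at -0.22 and that of the 18 at -0.49. The log2 changes were then larger (-1.32 for Pcdha10, -1.07 for Pcdha9, -0.69 for Dspp and -0.89 for Tshz3), and the edgeR adjusted p was 1 for each. Without wild-type replicate 2, 1 region centred on a coding exon was called lower.

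The rest of the 18 did not pass the edgeR threshold. Zfp420, a zinc finger gene with 1 coding exon, had 191 and 196 reads in wild-type cells against 71 and 171 in Uhrf1 KO cells, a log2 change of -0.47 ± 0.18 (SE; edgeR adjusted p = 0.143). Fat4 (exon 9) had a log2 change of -0.26 ± 0.17 and Hydin, on chromosome 8, -0.25 ± 0.13 (SE). The highest value was 0.30 ± 0.27 in 2410141K09Rik. Regions covered over at least 50% in each library were also allowed, a choice made after seeing the data. With these, 125 regions centred on coding exons were tested among 12440. Of the 125, edgeR called 13 lower (10.4%, against 3.19% of all) and 0 higher (against 0.378%). At an unadjusted p under 0.05, 47 were lower and 2 higher, 39.2% of the 125 against 20.2% of all 12440 in either direction. The median log2 change of the 125 was -0.30, against -0.12 over all 12440.

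In Dhx9 KO cells edgeR called 0 of 57 coding exon regions at a false discovery rate of 0.05, where it called 0.408% of 2940 regions lower and 0.034% higher. At an unadjusted p under 0.05, 4 were lower and 0 higher, 7.02% of the 57 against 12.2% of all 2940 in either direction. DESeq2 also called 0, with 4 at an unadjusted p under 0.05 (7.02%, against 7.11% of all). The median log2 change was 0.03 over the 57 and 0.01 over all 2940. The smallest p belonged to Polrmt, with a log2 change of -0.42 ± 0.11 (SE; edgeR adjusted p = 0.164) from the reads given above. Zfp420 had 84 and 127 reads in Dhx9 KO cells, a log2 change of -0.70 ± 0.19 (SE; edgeR adjusted p = 0.214), and Pcdha10 had 109 and 117, a log2 change of -0.56 ± 0.16 (SE; edgeR adjusted p = 0.224). With Dhx9 KO replicate 1 left out 5 of the 57 (8.77%) were called lower, against 5.44% of all 2940, and 0 higher, against 4.73%. With Dhx9 KO replicate 2 left out 4 (7.02%) were lower, against 11% of all, and 2 (3.51%) higher, against 5.20%. At 50% coverage, 426 coding exon regions were tested among 24757, and edgeR called 0 lower (against 0.117% of all) and 1 higher (against 0.00404%). At an unadjusted p under 0.05, 26 were lower and 22 higher, 11.3% of the 426, near the 10.1% of all 24757. Each of the fits without a Dhx9 KO library assumed that the lone knockout library varied like wild-type.

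The difference between the knockouts was tested directly in a fit of all 6 libraries. Of 902 regions called and covered in every library, 8 were centred on coding exons. edgeR called 0 of the 8 and 0 of the 902 different between Uhrf1 KO and Dhx9 KO, with 3 of the 8 and 180 of the 902 at an unadjusted p under 0.05. Pcdha10 had a log2 difference (Uhrf1 KO minus Dhx9 KO) of -0.70 ± 0.22 (SE; edgeR adjusted p = 0.110), Dsp, the desmoplakin gene, -0.59 ± 0.22 (SE; edgeR adjusted p = 0.185) and LOC108168045 0.43 ± 0.13 (SE; edgeR adjusted p = 0.101).

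A hexamer known from the binding site of ZFP57, the KRAB zinc finger protein of imprinted loci, was looked for as TGCCGC on either strand in the 300 bases at the centre of each region. It was found in 8.53% of coding exon regions, 2.51% of other regions of the autosomes and 2.67% of all regions. At transcript starts the share was 4.25% and in introns 2.57%. A hexamer with a CpG is more frequent where CpG sites are, as in these exons, and a match is no evidence of binding.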

How the data were processed

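H3K9me3 ChIP-seq peak lists of 6 libraries were used. Reads were aligned by the authors with Bowtie2 2.3.4.3 to mm10. Per the study's methods they were subsampled to about the same number in each library before peak calling. Peaks were called per library with epic2, keeping duplicates. The lists give reads within peaks only, so the total depth of a library is not known from them. Per the labels, the caller is listed as SICER 0.0.51. For each peak, the deposited lists give raw counts of ChIP reads and of background reads, the caller's p-value and FDR, and a log2 fold between ChIP and background that the authors' caller scaled to library size. The authors' caller also wrote a score per peak, which was not used. The deposited annotation gives exon and coding coordinates, and it was edited to hold the reporter, which shifts chromosome 2.

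Peaks were merged where they shared a base, with Python 3.11.15, numpy 2.4.6, pandas 2.3.3 and scipy 1.17.1. The exon class was taken from the transcript with the longest coding sequence that holds the midpoint. Lost regions had a peak in each wild-type library and in no library of the knockout, and gained regions the opposite. Read counts were tested with edgeR 4.0.16 in R 4.3.3 (TMM, called length as offset, quasi-likelihood F test, Benjamini-Hochberg adjustment over all regions tested), with DESeq2 1.42.0 as an alternative. On simulated data with 200 regions changed 2-fold, 191 were recovered beside 3 false calls for Uhrf1 KO and 189 beside 6 for Dhx9 KO. The simulated counts had the same spread between replicates in every region, so they do not give the recovery or the error in the real libraries. Scaled reads are reads per kb called, divided by each library's depth relative to wild-type replicate 1 (1, 0.935, 0.498, 1.19, 0.812 and 1.01 in the order WT, Uhrf1 KO, Dhx9 KO), from the median over 902 regions covered in all libraries. Depth here means read density within these regions and not the number of reads sequenced. GC content, repeats and sequences came from RefSeq GRCm38.p6, whose chromosome lengths hold every peak.

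Genes named are the 10 strongest in wild-type (also of at least 2 kb), the strongest lost (10 and 5) and gained (5 each), those past the edgeR threshold or with the smallest p, the 8 genes with the most regions, up to 4 genes per gene list, and the 5 regions with the most coding bases. The regions, lists and tests were chosen with earlier results of these data known. Gene lists were made from symbols. Replicates are, per the study's methods, biological, and intervals cover counting error only. Alternatives were stricter peaks, other merging, transcript, distance and length rules, other scalings and filters, a replicate block, and leaving out each library.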

Additional observations from a re-analysis of the deposited data

How the results depend on the processing

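The number of regions moved past 1.5 times from 2379 with peaks at an FDR of at most 1e-10 (1338), in regions of 2 kb or shorter (631) and where at least 50% of the bases were coding (736), and was 2233 to 2389 without single libraries. The share on last coding exons rose from 22.5% to 25.5% (FDR of 1e-10), 26.3% (log2 fold of at least 1), 25.6% (equal number of peaks per list), 30.4% (2 kb or shorter) and 33.0% (at least 50% coding), and was 22.4% to 23.5% without single libraries. The 486 losses in Uhrf1 KO became 301, 209, 181, 76 and 143 under these 5 settings in the same order, and 504 to 876 without single libraries. The share lost stayed above that of all regions in every one of these. The 18 gains became 10, 43, 64, 5 and 7, and 31 to 79 without single libraries. In Dhx9 KO the losses moved to 33 (2 kb or shorter) and 39 (at least 50% coding), and were 194 to 402 without single libraries, and the 61 gains became 25, 33, 20 and 22 (FDR, log2 fold, 2 kb, 50% coding) and 108 to 330. The difference in peak shares was 0.308 to 0.508 in Uhrf1 KO and -0.00815 to 0.311 in Dhx9 KO without single libraries, and it reversed without Dhx9 KO replicate 2. Of read counts, the 4 lower regions in Uhrf1 KO became 0 with equal library sizes, 0 when all 39457 regions called in every library were tested (388 of them on coding exons, with 32 lower and 8 higher at an unadjusted p under 0.05, or 10.3% against 9.05% of all), 1 in the fit of all 6 libraries (8 tested), 13 at 50% coverage, and 1 to 6 without single libraries, where the higher calls were 0 to 1. In Dhx9 KO, lower calls were 0 to 5 and higher calls 0 to 2 without single libraries, and 1 region was higher at 50% coverage. The cause of these moves was not tested, beyond the fewer regions or libraries each setting leaves. With a replicate block 3 regions were lower and 0 higher in Uhrf1 KO, Tshz3 having an edgeR adjusted p of 0.0705, and 0 in Dhx9 KO. Same-numbered libraries did not deviate together over the tested regions (correlation of deviations 0.081 for Uhrf1 KO and -0.062 for Dhx9 KO). No pairing by number was seen there, but such a correlation cannot exclude that same-numbered libraries were handled together. Polrmt, Zfp420 and Pcdha10 passed the edgeR threshold in Dhx9 KO only when 1 Dhx9 KO library was left out. Excluding chromosomes 4 and 8 was an alternative chosen after seeing the data. The smallest peak held 14 to 27 reads depending on the library, so weaker marking could not be seen, most of all in Uhrf1 KO replicate 1, which had the fewest reads within peaks.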
